A study of Mus musculus with 6 samples.

Results

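The genes described here are 46 markers of cells other than motor neurons, out of 56805 genes counted in a comparison of cervical and thoracic motor neurons of the mouse. They were chosen by name: 9 genes of erythroid cells, 10 of endothelium, 10 of macrophages, 9 of mesenchyme and 8 of skeletal muscle. The 6 libraries came from motor neurons at e12.5, 3 from the cervical and 3 from the thoracic spinal cord. All were labelled as control genotype without treatment, so as far as the labels say neither region carried an allele or agent that the other lacked. No strain, reporter allele or Cre driver is named in the labels, and the way the motor neurons were isolated and the number of embryos per library are left unsaid by the sources used here. Total RNA, 10 to 20 ng per library, was depleted of ribosomal RNA and amplified by 15 PCR cycles. The replicates are called biological, but nothing says whether one was an embryo, a litter or a pool, and a p-value given here speaks only of the scatter among these 6 libraries.

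An embryonic spinal cord is not made of neural cells alone. At this stage vessels grow into it from a plexus on its surface, with pericytes on their walls, and macrophages born in the yolk sac settle in it as the precursors of microglia. Mesenchyme of the somites and meninges surrounds the cord, and the myotome, the source of trunk muscle, lies beside it. Blood in the vessels consists largely of primitive erythrocytes from the yolk sac, which carry embryonic globins, while definitive erythrocytes with adult globins begin to come from the liver. RNA of each of these cells can be read from genes that motor neurons make little or none of, within the limit that in bulk RNA fewer cells of a type and less RNA per cell cannot be told apart.

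Among the erythroid genes the embryonic globins and Hba-a1 varied together over the libraries while Alas2 stayed even, so the 250 bases upstream of 3 globins and of Alas2 are given. Sequences are from RefSeq on GRCm38.p6, 5′ to 3′ on the strand of the gene, with capitals marking matches to the GATA motif, the site of the erythroid factor GATA1. The letters searched, on both strands, were AGATAA as the first form of the site, TGATAA as the second form of it, AGATAG as the third form of it and TGATAG as the fourth. Hbb-y, the embryonic beta-like globin of the Hbb cluster, has its window at chr7:103853208-103853457 on the minus strand. Hba-x, the embryonic zeta globin, has its window at chr11:32276350-32276599, and Hba-a1, an adult alpha globin, at chr11:32283422-32283671, both on the plus strand. Alas2, which makes the first enzyme of haem synthesis in erythroid cells, has its window at chrX:150547167-150547416 on the plus strand.
Hbb-y: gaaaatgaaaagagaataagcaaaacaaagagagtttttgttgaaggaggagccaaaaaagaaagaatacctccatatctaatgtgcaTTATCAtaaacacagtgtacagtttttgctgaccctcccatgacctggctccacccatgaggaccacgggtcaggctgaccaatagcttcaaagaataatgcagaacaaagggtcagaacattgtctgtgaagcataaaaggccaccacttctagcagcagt
Hba-x: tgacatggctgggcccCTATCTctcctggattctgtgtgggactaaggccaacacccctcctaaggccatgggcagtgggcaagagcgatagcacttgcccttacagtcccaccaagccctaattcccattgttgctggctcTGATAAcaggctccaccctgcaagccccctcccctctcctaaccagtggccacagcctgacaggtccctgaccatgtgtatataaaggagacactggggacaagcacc
Hba-a1: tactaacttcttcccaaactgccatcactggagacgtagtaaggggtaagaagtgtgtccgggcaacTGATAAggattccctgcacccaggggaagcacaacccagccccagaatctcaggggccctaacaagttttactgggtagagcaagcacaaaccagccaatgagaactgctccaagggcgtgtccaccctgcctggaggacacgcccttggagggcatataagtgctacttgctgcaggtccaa
Alas2: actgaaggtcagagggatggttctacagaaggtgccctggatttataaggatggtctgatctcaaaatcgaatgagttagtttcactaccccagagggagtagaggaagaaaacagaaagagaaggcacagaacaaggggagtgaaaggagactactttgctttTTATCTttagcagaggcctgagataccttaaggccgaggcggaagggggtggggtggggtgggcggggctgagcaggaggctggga
Of the 9 erythroid genes, 7 had a window in the table, and 6 of these 7 held the GATA motif, against 26.5% of 32851 promoter windows of the same length. The CACCC motif, the site of Klf-type factors, was in all 7 and in 52.0% of all windows. The windows of Hba-a1 and Hba-a2 are nearly the same sequence, so their matches are not independent. Each of the other 4 lists had 7 genes with a window. There the GATA motif was in 4 macrophage, 2 mesenchyme, 1 endothelial and 1 muscle gene. The CACCC motif was in 6 endothelial, 5 macrophage, 5 muscle and 4 mesenchyme genes. The GATA motif was present in all 4 windows shown, those of the 3 globins and that of Alas2. A match describes letters and not binding.

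Each library held between 32103071 and 33790634 counts, apart from thoracic replicate 1 with 53186131. The label was checked on 9 motor neuron genes (Mnx1, Isl1, Isl2, Lhx3, Lhx4, Chat, Slc18a3, Slc5a7 and Prph), all of which were present, with mean levels of 12.9 to 176 CPM (counts scaled to the size of the library with edgeR's TMM factors). Their sum was 724, 358 and 501 CPM in cervical replicates 1, 2 and 3 and 669, 448 and 617 CPM in the thoracic replicates. The 46 other markers summed to 70.2, 109 and 156 CPM in the cervical libraries and to 115, 115 and 126 CPM in the thoracic libraries. Cervical replicate 1 had the highest sum for motor neuron genes and the lowest for the 46 markers together but also the highest erythroid and muscle sums of the 6 libraries. It was the library in which 17 of the 33 tested members had their lowest value. Per length of exon the most abundant member, Dcn, had 7.17 RPKM (reads per kilobase of exon, scaled to library size), followed by Hbb-y at 6.98, Fbln1 at 3.10, Alas2 at 2.61 and Hba-x at 2.17, while Mnx1 had 78.3 RPKM.

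No member passed the threshold between cervical and thoracic libraries in edgeR's quasi-likelihood test over all genes, which called 119 of 21972 genes (0.542%) at a Benjamini-Hochberg adjusted p below 0.05. The filter on low counts left 33 of the 46 members. Of these 33, 8 had an unadjusted p below 0.05 in the edgeR test, a larger share than the 1860 of all 21972 genes tested. No test was run on this share, and members of a list share their cells. limma-voom called 0 members as well. DESeq2 called 1 member, Hba-x, where it called 2.1% of 19414 genes. Samples with the same replicate number deviated together, and with that number as a block 1 member was called, again Hba-x, among 1.97% of all genes. By direction, the blocked fit called 0.573% of genes on the cervical side and 1.39% on the thoracic side. Without the filter on low counts 5 members were called (Hba-x, Hbb-y, Hbb-bh1, C1qb and Dcn), where 1.91% of 39190 genes were. The cervical and thoracic values of all 5 overlapped, and in that fit the SE of Dcn was 0.09 on the log2 scale, against 0.53 with the filter. The cause of that drop was not tested.

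The lists leaned in different directions in the edgeR fit without the block, in which no member was called. Of the tested members, the log2 fold change (cervical over thoracic) was above 0 in 4 of 4 erythroid and 8 of 8 macrophage genes, and below 0 in 9 of 10 endothelial, 7 of 7 mesenchyme and 3 of 4 muscle genes. The medians were 1.44, 1.03, -0.39, -0.34 and -0.42, beside 0.01 over all genes tested. Members of a list share their cells, so these counts describe 6 libraries and are not independent of each other. In every list the summed level overlapped between the regions, and the members varied more between libraries than genes in general did: the median ratio of highest to lowest library was 4.45 over the tested members and 1.497 over all tested genes. The part of the members' low counts in this range was not tested.

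**Figure D1:**
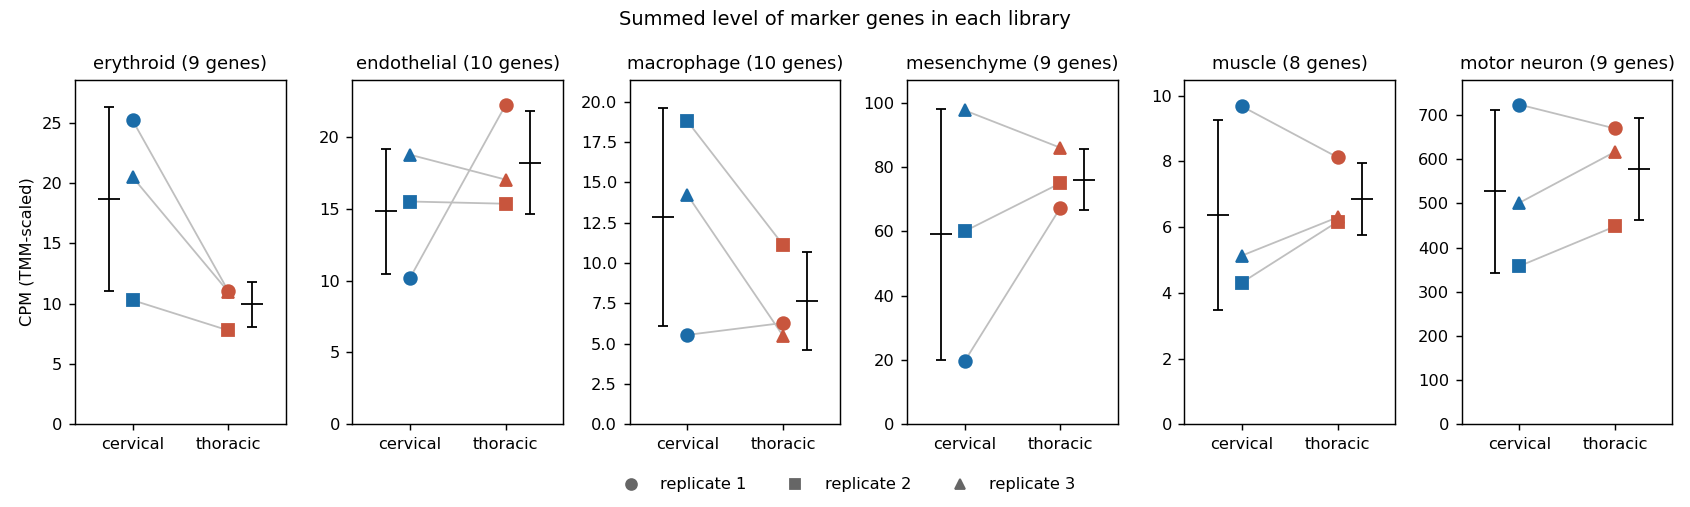
Summed CPM (y axis, TMM-scaled, from 0) of each marker list and of 9 motor neuron genes in the 3 cervical (blue) and 3 thoracic (red) libraries; marker shapes give the replicate number, grey lines join libraries of the same number, and black bars are the mean ± SD of each region. All panels overlap between regions: erythroid sums reach 25.2 CPM in cervical replicate 1 against 7.79 to 11.05 CPM in thoracic libraries, and mesenchyme sums span 19.6 to 97.6 CPM among the cervical libraries alone.

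Globin messages lay above every thoracic value in 2 of the 3 cervical libraries. The 7 globin genes together stood at 17.5, 3.17 and 13.5 CPM in cervical replicates 1, 2 and 3 and at 2.95, 2.64 and 5.43 CPM in the thoracic replicates. Cervical replicates 1 and 3 were thus high, cervical replicate 2 lay inside the thoracic range, and the mean was 3.10-fold higher in cervical libraries. Of all globin reads, 89.8% to 93.0% in each library came from the 3 embryonic genes Hbb-y, Hbb-bh1 and Hba-x. In cervical replicate 2, with 108 globin reads, this share was 89.8% (95% Wilson interval 82.7 to 94.2%), and in cervical replicate 1, with 563 reads, it was 91.7% (89.1 to 93.7%). The embryonic share thus varied little while the globin sum ranged 6.62-fold over the libraries. These intervals cover counting error only, as the labels mention no molecular identifiers. The adult copies share much of their sequence with each other, and the embryonic genes share no 50-base window with another globin. Reads that could not be assigned to 1 copy could thus be missing from the adult side only. The part of this in the embryonic share was not tested.

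Hbb-y (chr7:103500956-103502423 on mm39, minus strand) made up 52.0% to 68.6% of globin reads. Its level was 10.4, 1.94 and 7.01 CPM in the cervical and 1.68, 1.81 and 3.64 CPM in the thoracic libraries. The regions overlapped through cervical replicate 2. The log2 fold change was 1.45 (SE 0.50, edgeR adjusted p = 0.381, and 0.102 with the block). With the block Hbb-y was called when replicate 2 of either region was left out. Hba-x (chr11:32226400-32228116, plus strand) followed the same order of cervical libraries, at 4.87, 0.792 and 4.04 CPM against 0.859, 0.491 and 1.14 CPM. Its cervical value was above the thoracic one in all 3 replicate numbers, with ratios of 5.67, 1.61 and 3.53, although cervical replicate 2 lay below thoracic replicates 1 and 3. The log2 fold change was 1.95 (SE 0.56, edgeR adjusted p = 0.242). With the block it was 1.81 (SE 0.34, edgeR adjusted p = 0.0133). This call was lost when cervical replicate 1 or cervical replicate 3 was left out, and kept without thoracic replicate 1 or 3. Leaving out either library of a pair leaves the same complete pairs to compare, so the loss cannot be credited to the cervical libraries. Its cause was not tested.

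Hbb-bh1, the other embryonic beta-like globin, was high in the same libraries, at 0.713, 0.117 and 1.35 CPM in the cervical libraries and 0.112, 0.153 and 0.123 CPM in the thoracic ones. It rested on 85 reads in all and did not pass the filter. The adult globins were near the limit of detection. Hba-a1 had 32, 5 and 20 reads in cervical and 14, 0 and 4 in thoracic libraries, and Hba-a2 had at most 5 reads in a library. Hbb-bs and Hbb-bt, the adult beta globins, had at most 9 reads each. Their values are uncertain for a further reason: 67.5% of the 50-base windows of Hba-a1 transcripts also occur in Hba-a2, and 65.8% of those of Hbb-bs in Hbb-bt, so reads could not always be assigned to 1 copy. None of the other globin pairs shared such a window.

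Slc4a1, the anion exchanger of the red cell membrane, had 1.49, 0.293 and 0.469 CPM in the cervical libraries and 0.224, 0.368 and 0.247 CPM in the thoracic libraries. Cervical replicate 1 again had the highest value, and the regions overlapped (log2 fold change 1.43 with an SE of 0.62, edgeR adjusted p = 0.551). Alas2 (chrX:149330371-149353634) did not follow the globins. It had 6.26, 6.84 and 6.54 CPM in the cervical libraries and 7.88, 4.78 and 5.31 CPM in the thoracic ones, a coefficient of variation of 17.6% against 80.9% for Hbb-y and 93.8% for Hba-x. Alas2 shares 311 exonic bases, 12.9% of its exons, with Apex2 on the opposite strand, a DNA repair gene at 32.3 to 39.2 CPM, and the sources used here do not give the strand setting of the counting. The Alas2 count was 14.8% to 22.1% of the Apex2 count in each library. The part of these shared bases in the Alas2 level was not tested.

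Without Alas2 the erythroid sum had a log2 ratio of 1.62 between the regions, against 0.91 with it. Of 15 further erythroid genes in the table, 9 were tested, 0 were called with or without the block, and their median log2 fold change was 0.01. The most abundant of them, Tfrc, the transferrin receptor that dividing cells of many kinds carry, had 97.0 ± 3.77 CPM in the cervical libraries and 96.4 ± 6.80 CPM in the thoracic libraries (SD, n = 3). Several genes of that list, Tfrc among them, are active outside blood too.

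Macrophage genes leaned to the cervical libraries, again without a call in the filtered edgeR fits of all 6 libraries. The sum of the 10 genes was 5.55, 18.8 and 14.2 CPM in the cervical libraries and 6.29, 11.1 and 5.50 CPM in the thoracic libraries. Cervical replicates 2 and 3 were the highest, and cervical replicate 1 lay among the lowest. The order of the cervical libraries was therefore not that of the globins, for which replicate 2 was the lowest. Within replicate numbers the ratio of cervical to thoracic was 0.882, 1.69 and 2.59.

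C1qa, C1qb and C1qc, which lie side by side on chromosome 4, encode the subunits of C1q, the first component of complement, which microglia and other macrophages secrete. Together they stood at 0.93, 4.81 and 2.16 CPM in the cervical libraries and 0.747, 1.90 and 0.587 CPM in the thoracic libraries. Each of the 3 had its highest value in cervical replicate 2. C1qb had 0.465, 2.32 and 1.25 CPM in the cervical libraries and 0.392, 0.828 and 0.123 CPM in the thoracic ones, above its thoracic partner in all 3 replicate numbers. The regions overlapped all the same (log2 fold change 1.59 with an SE of 0.65, edgeR adjusted p = 0.51, and 0.20 with the block). With the block C1qb was called when cervical or thoracic replicate 1 was left out. C1qc had a log2 fold change of 1.18 (SE 0.60, edgeR adjusted p = 0.674), and C1qa, with 84 reads in all, did not pass the filter.

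Among the receptors, Cx3cr1, the fractalkine receptor of microglia, had 0.527, 3.84 and 2.03 CPM in the cervical libraries and 0.653, 2.09 and 0.803 CPM in the thoracic libraries. In both regions replicate 2 was the highest. Mrc1, the mannose receptor that macrophages at the borders of the nervous system carry, had 0.093, 2.38 and 2.75 CPM in the cervical libraries and 0.821, 1.66 and 0.772 CPM in the thoracic libraries. Its lowest value by far was cervical replicate 1, 29.6-fold under the highest. That value rested on 3 reads, so the fold is uncertain. The log2 fold changes were 0.88 (SE 0.61) for Cx3cr1 and 0.70 (SE 0.72) for Mrc1, with edgeR adjusted p of 0.806 and 0.895.

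Csf1r, the receptor that macrophages need for survival, ran from 2.25 CPM in thoracic replicate 3 to 5.05 CPM in cervical replicate 2. Its count is uncertain because it shares 873 exonic bases with Hmgxb3 on the opposite strand, which stood at 67.4 to 74.0 CPM. Ptprc, the pan-leukocyte phosphatase CD45, ranged from 0.403 CPM in cervical replicate 1 to 1.53 CPM in cervical replicate 3. Its log2 fold change was 0.57 (SE 0.45) and that of Csf1r 0.48 (SE 0.28), with edgeR adjusted p of 0.837 and 0.74.

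Tyrobp and Fcer1g encode the adaptor proteins through which many immune receptors of these cells signal. Fcer1g had 0.651, 0.499 and 0.501 CPM in the cervical libraries and 0.299, 0.092 and 0.247 CPM in the thoracic ones, and was the only tested member whose cervical values all lay above the thoracic ones, as for 6.25% of all genes tested. The difference had a log2 fold change of 1.31 (SE 0.50, edgeR adjusted p = 0.465) and rested on 81 reads in all. Tyrobp was 0.186, 0.616 and 0.97 CPM in the cervical libraries and 0.112, 0.337 and 0.123 CPM in the thoracic libraries (log2 fold change 1.66 with an SE of 0.67, edgeR adjusted p = 0.506). Aif1, the actin-binding protein Iba1 used to stain microglia, went the other way in its means, at 0.254 ± 0.0312 against 0.39 ± 0.307 CPM on 71 reads in all.

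Of the 33 tested members 6 were higher in cervical libraries in all 3 replicate numbers, a share near the 15% of all genes tested. These 6 were the macrophage genes C1qb, C1qc, Tyrobp and Fcer1g and the globins Hbb-y and Hba-x. Of 16 further macrophage genes, 9 were tested and 8 of these had a log2 fold change above 0, with a median of 0.68. With all 6 libraries and the filter, edgeR called none without the block and 2 with it, Runx1 and Sall1, in opposite directions. DESeq2 called the same 2 without a block, and edgeR called Sall1 without cervical replicate 1. Without the filter edgeR called these 2 and Laptm5, where it called 1.91% of genes. Laptm5 was also called higher in cervical libraries with the block when replicate 1 of either region was left out. Runx1, a transcription factor of blood and macrophages that some motor neurons of the cervical cord also express, had 5.52, 5.52 and 1.66 CPM in the cervical libraries and 1.62, 2.36 and 0.864 CPM in the thoracic libraries (blocked log2 fold change 1.35 with an SE of 0.25, edgeR adjusted p = 0.0109). Its cervical replicate 1, where the macrophage sum was low, was as high as replicate 2, and the blocked call was lost when replicate 2 of either region was left out. Sall1, which microglia share with neural progenitors, was the most abundant gene of the list at 95.3 ± 12.8 CPM in the cervical libraries and 131 ± 6.37 CPM in the thoracic libraries (blocked log2 fold change -0.47 with an SE of 0.07, edgeR adjusted p = 0.00446, and 0.0571 without the block).

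**Figure D2:**
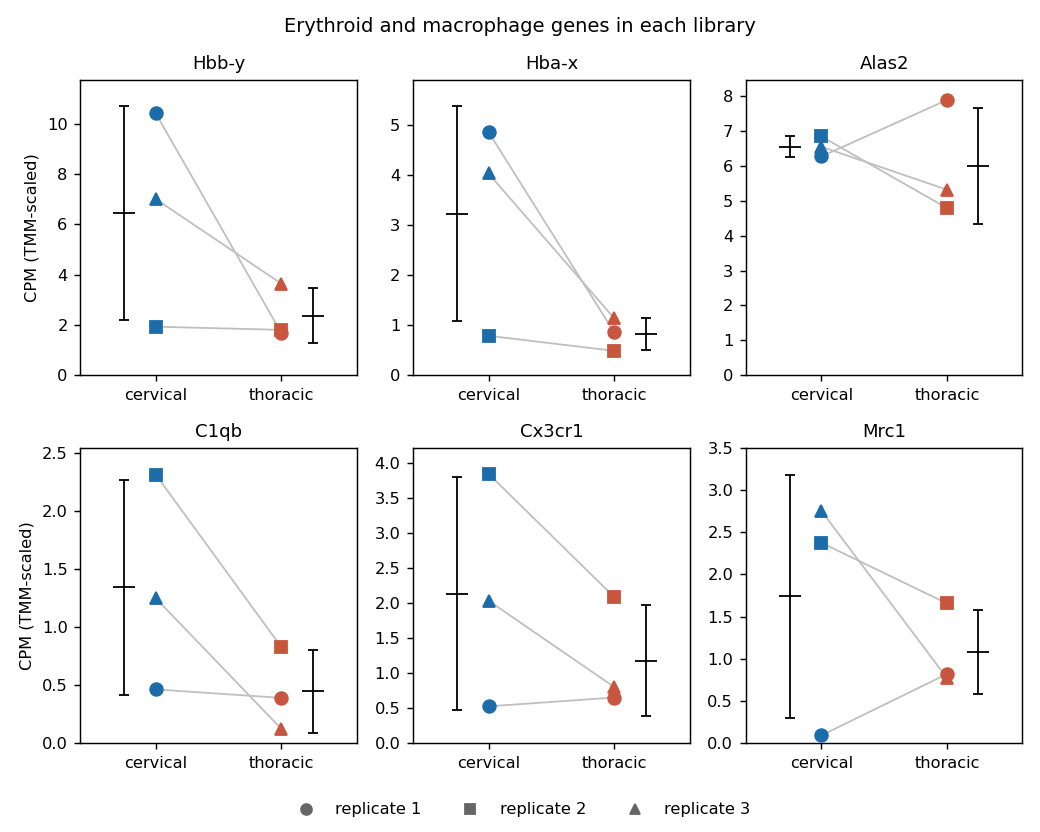
CPM (y axis, TMM-scaled, from 0) of 3 erythroid genes (top row) and 3 macrophage genes (bottom row) in each cervical (blue) and thoracic (red) library; shapes give the replicate number, grey lines join the same number, and black bars are the mean ± SD of 3 libraries. Hbb-y and Hba-x are highest in cervical replicates 1 and 3, Alas2 is even, and C1qb and Cx3cr1 are highest in cervical replicate 2.

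Endothelial genes were spread more evenly and leaned to the thoracic libraries. The 10 genes summed to 10.2, 15.5 and 18.7 CPM in the cervical libraries and 22.2, 15.3 and 17.0 CPM in the thoracic libraries. The lowest value was cervical replicate 1 and the highest thoracic replicate 1, and the other 4 libraries lay between 15.3 and 18.7 CPM. Within replicate numbers the ratio of the sums was 0.458, 1.01 and 1.10, so the lean of the sum came from replicate 1. That holds for the sum and not for each gene, as Flt1 and Pecam1 were lower in cervical in all 3 replicate numbers. Without cervical replicate 1 the log2 ratio of the sums was -0.09, against -0.30 with all libraries.

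Of the receptors for vascular endothelial growth factor, Flt1 was the member without overlap between the regions. Flt1, the decoy receptor that restrains vessel sprouting, had 1.27, 1.26 and 1.66 CPM in the cervical libraries and 2.78, 2.15 and 2.13 CPM in the thoracic libraries. All thoracic values lay above all cervical ones, as for 7.5% of all genes tested. Its log2 fold change was -0.76 (SE 0.25, edgeR adjusted p = 0.359, and 0.286 with the block). Kdr, the main signalling receptor and the most abundant member of the list by CPM, had 2.36, 4.40 and 5.19 CPM in the cervical libraries and 5.77, 3.56 and 4.23 CPM in the thoracic libraries (log2 fold change -0.19 with an SE of 0.28, edgeR adjusted p = 0.939).

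Pecam1, a junction protein of endothelium, was lower in the cervical library of all 3 replicate numbers, with ratios of 0.554, 0.877 and 0.866, and so was Flt1. In all, 5 of the 33 tested members were lower in cervical in all 3 replicate numbers (with Twist1, Des and Tnnt1), a share near the 16.4% of all genes tested. Cdh5, the endothelial cadherin, ranged from 0.527 CPM in cervical replicate 1 to 2.35 CPM in cervical replicate 3, and Tek and Tie1, the angiopoietin receptor and its relative, from 0.31 to 1.17 and from 0.868 to 2.30 CPM. Cldn5, the tight junction protein of the blood-brain barrier, ranged from 0.403 to 1.19 CPM. For these 4 genes the lowest library was cervical replicate 1, and their log2 fold changes lay between -0.46 and -0.21.

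Egfl7, a matrix protein secreted by endothelium, and Emcn, a sialomucin of capillaries and veins, had log2 fold changes of -0.55 (SE 0.35) and -0.42 (SE 0.64). Emcn was lowest in cervical replicate 1 (0.093 CPM) and thoracic replicate 3 (0.185 CPM). Esam, an adhesion molecule of endothelial junctions, was level between the regions at 2.63 ± 0.652 and 2.63 ± 0.516 CPM (SD, n = 3) and was the only member of the list with a log2 fold change not below 0. The edgeR adjusted p of these 3 genes ranged from 0.785 to 0.998.

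Other genes of the vessel wall followed the same side. Of 15 further endothelial genes 11 were tested, 10 of them with a log2 fold change below 0 and a median of -0.44. With the filter and all libraries, 0 were called with or without the block. Ramp2 was called higher in thoracic libraries without the filter, and with the block when replicate 1 of either region was left out. The most abundant, Slc2a1, the glucose transporter of barrier endothelium and many other cells, had 22.0 ± 2.68 CPM in the cervical libraries and 25.9 ± 1.74 CPM in the thoracic libraries. Of 10 pericyte genes 9 were tested, all 9 with a log2 fold change below 0, and the median was -0.77. With the filter on low counts edgeR called none without the block and 2 with it, Cspg4 and Abcc9, where the block called 1.97% of all genes tested. Without the filter it called Cspg4, Abcc9 and Pdgfrb higher in thoracic libraries, where it called 1.91% of genes. DESeq2 also called Cspg4 and Abcc9 without a block, where it called 2.1% of genes.

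Cspg4, the proteoglycan NG2 of pericytes and glial precursors, had 2.697, 5.02 and 4.66 CPM in the cervical libraries and 5.28, 10.2 and 8.52 CPM in the thoracic libraries. The regions did not overlap, as for 7.5% of all genes tested in this direction. The ratio within replicate numbers was 0.511, 0.493 and 0.547 (blocked log2 fold change -0.95 with an SE of 0.16, edgeR adjusted p = 0.00796, and 0.262 without the block). Abcc9, a potassium channel subunit of pericytes, did not overlap either, at 4.15, 6.87 and 6.73 CPM against 7.75, 13 and 9.69 CPM (blocked log2 fold change -0.78 with an SE of 0.15, edgeR adjusted p = 0.017, and 0.279 without the block). Both calls were lost when replicate 2 of either region was left out. Pdgfrb, the receptor that recruits pericytes to vessels and the most abundant gene of this list, had 5.89, 12.6 and 14.1 CPM in the cervical libraries and 12.47, 19.4 and 15.3 CPM in the thoracic libraries (blocked log2 fold change -0.60 with an SE of 0.16, edgeR adjusted p = 0.083). With the block Pdgfrb was called higher in thoracic libraries when replicate 3 of either region was left out.

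**Figure D3:**
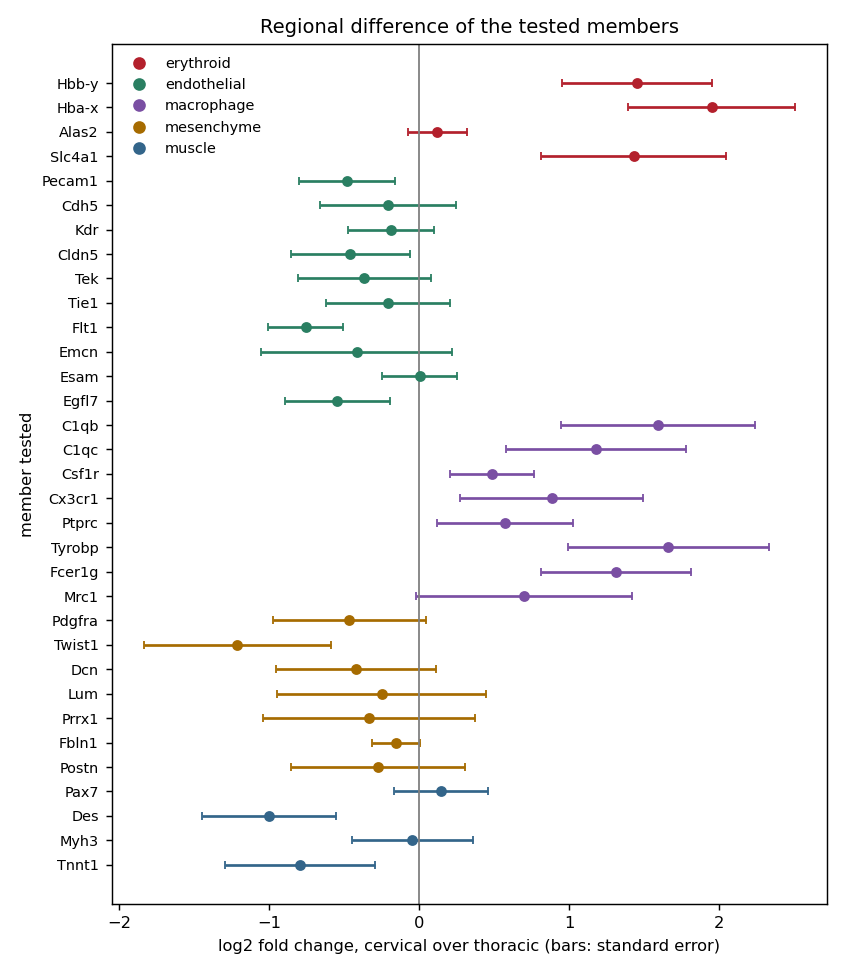
Log2 fold change, cervical over thoracic (x axis), of the 33 tested members with bars of ± 1 standard error from the edgeR fit without the block, coloured by list. All 4 erythroid and 8 macrophage genes lie to the right of 0, 9 of 10 endothelial and all 7 mesenchyme genes to the left, and no adjusted p is below 0.05.

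Mesenchyme genes gave the largest sum of the 5 lists in every library but cervical replicate 1, where erythroid genes summed to more, and the largest spread among cervical libraries. The 9 genes summed to 19.6, 60.03 and 97.6 CPM in the cervical libraries and 67.3, 75.0 and 86.0 CPM in the thoracic libraries. Cervical replicate 1 was the lowest of the 6 libraries and cervical replicate 3 the highest, a 4.98-fold range within 1 region, where the thoracic libraries ranged 1.28-fold. Of the 9 genes 8 had their lowest value in cervical replicate 1, and 6 had their highest in cervical replicate 3. The log2 ratio of the sums, -0.37, changed sign to 0.05 without cervical replicate 1 and was -0.94 without cervical replicate 3.

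Dcn (chr10:97315471-97354005), the small proteoglycan decorin of connective tissue and meninges, had 5.83, 42.0 and 59.6 CPM in the cervical libraries and 43.6, 45.3 and 54.9 CPM in the thoracic libraries. Cervical replicate 1 lay 10.2-fold below the highest library, and the other 5 lay close together. Dcn was 29.7% of the reads of the list in cervical replicate 1 (95% Wilson interval 26.3 to 33.4%) and 60.4% to 69.9% in the other libraries. Its log2 fold change was -0.42 (SE 0.53, edgeR adjusted p = 0.923). Lum (chr10:97400990-97408565), the related proteoglycan lumican encoded next to it, differed in its order: 0.992, 0.469 and 6.45 CPM in the cervical libraries and 2.91, 2.18 and 4.29 CPM in the thoracic libraries. Here cervical replicate 2 was low as well, although its Dcn level was close to that of the thoracic libraries. With the block Lum was called higher in thoracic libraries when replicate 3 of either region was left out, and not with all libraries (edgeR adjusted p = 0.511).

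Fbln1, the matrix glycoprotein fibulin 1, was the most even of the list, at 10.7, 12.2 and 15.4 CPM in the cervical libraries and 13.3, 16.7 and 12.8 CPM in the thoracic ones, a coefficient of variation of 16.2%. Postn, the matrix protein periostin, had 0.899, 2.46 and 6.63 CPM in the cervical libraries and 1.90, 4.32 and 5.99 CPM in the thoracic ones, lowest in replicate 1 and highest in replicate 3 of both regions. The log2 fold changes were -0.15 (SE 0.16) and -0.27 (SE 0.58), with edgeR adjusted p of 0.89 and 0.959.

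Among the transcription factors, Twist1, which marks head, limb and somite mesenchyme, had 0.062, 0.411 and 1.16 CPM in the cervical libraries and 1.23, 1.26 and 1.30 CPM in the thoracic libraries. It rested on 2, 14 and 37 reads in the cervical libraries. The regions did not overlap, but the gap between cervical replicate 3 and thoracic replicate 1 was small (log2 fold change -1.21 with an SE of 0.62, edgeR adjusted p = 0.675). Prrx1, a factor of limb and body wall mesenchyme, ran from 0.124 CPM in cervical replicate 1 to 2.003 CPM in cervical replicate 3 (log2 fold change -0.34, SE 0.71). Pax1 and Pax9 mark the sclerotome, the part of the somite that forms vertebrae. Pax1 had 12 reads in all, 10 of them in cervical replicate 3. Pax9 had 0, 8 and 6 reads in cervical and 22, 19 and 10 in thoracic libraries, without overlap in CPM, and did not pass the filter.

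Pdgfra, the receptor of mesenchyme that glial precursors of the cord also carry, had 0.961, 1.82 and 5.82 CPM in the cervical libraries and 3.25, 3.13 and 5.53 CPM in the thoracic libraries. As for Postn, replicate 1 had the lowest cervical value and replicate 3 the highest value of both regions (log2 fold change -0.47 with an SE of 0.51, edgeR adjusted p = 0.904). Leaving Pdgfra out moved the log2 ratio of the mesenchyme sums to -0.36.

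The fibrillar collagens, outside the list, were low in cervical replicates 1 and 2. Col1a1, Col1a2 and Col3a1, the fibrillar collagens of connective tissue, summed to 12.6, 22.9 and 141 CPM in the cervical libraries and 79.6, 100 and 150 CPM in the thoracic ones, an 11.9-fold range. Of 14 further mesenchyme genes 12 were tested, 11 of these had a log2 fold change below 0, and the median was -0.60. With the filter on low counts edgeR called none without the block in all 6 libraries, while DESeq2 called Uncx. Without the filter edgeR called Col1a1, Col1a2, Col3a1 and Uncx higher in thoracic libraries, where it called 1.91% of genes. Without cervical replicate 3 the edgeR fit called Col1a1, Col1a2 and Col3a1, and without cervical replicate 1 it called Uncx. With the block Col1a1 (log2 fold change -1.71 with an SE of 0.32, edgeR adjusted p = 0.0122, and 0.669 without), Col3a1 (-1.60, SE 0.35, edgeR adjusted p = 0.0331, and 0.824 without) and Uncx were called higher in thoracic libraries. The ratio for Col1a1 within replicate numbers was 0.17, 0.178 and 0.764. Col1a1 and Col3a1 lost the blocked call when replicate 2 of either region was left out.

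Uncx, a homeobox gene of the somite that spinal neurons also express, was the most abundant of these at 47.2 ± 6.93 CPM in the cervical libraries and 63.7 ± 0.549 CPM in the thoracic libraries (blocked log2 fold change -0.44 with an SE of 0.08, edgeR adjusted p = 0.0152). Unlike the collagens, it had similar values in the 3 cervical libraries, at 55.1, 42.1 and 44.4 CPM. Of 5 cartilage genes 4 were tested. Col2a1, the collagen of cartilage, which the early neural tube also makes, was called higher in thoracic libraries with the block, at 66.2, 123 and 87.5 CPM in the cervical libraries and 111, 138 and 113 CPM in the thoracic libraries (log2 fold change -0.42 with an SE of 0.09, edgeR adjusted p = 0.029, and 0.601 without). This call was lost when replicate 1 or 3 of either region was left out, and that of Uncx when replicate 2 or 3 was. Unblocked edgeR without the filter on low counts also called Col2a1. Of 6 epithelial genes only Epcam passed the filter, with a mean of 0.538 CPM and a sum over the list of 0.185 to 1.41 CPM.

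**Figure D4:**
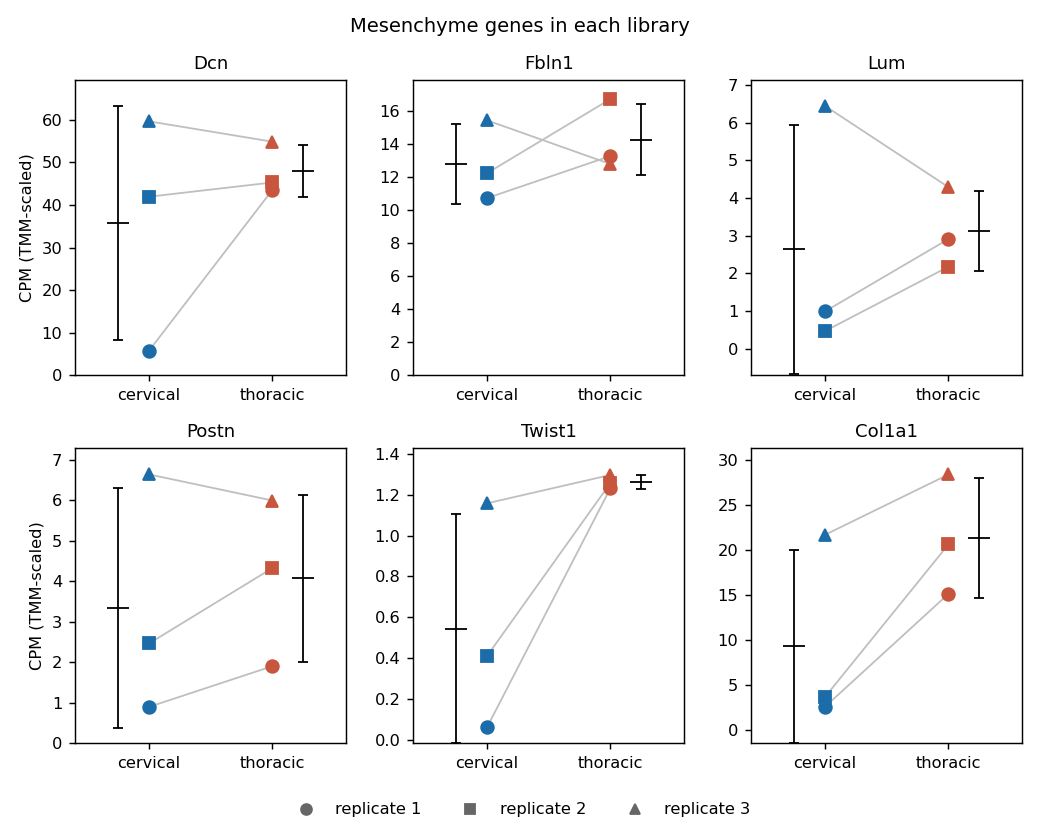
CPM (y axis, TMM-scaled) of 5 mesenchyme members and of Col1a1 in each cervical (blue) and thoracic (red) library; shapes give the replicate number, grey lines join the same number, and black bars are the mean ± SD of 3 libraries. Cervical replicate 1 is the lowest library in every panel but that of Lum and lies at 5.83 CPM for Dcn against 42.0 CPM or more in the other libraries, while cervical replicate 2 is low for Lum, Twist1 and Col1a1 but not for Dcn.

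Muscle genes gave the smallest summed CPM of the 5 lists by the mean of each region, though macrophage genes summed to less in replicate 1 of both regions and in thoracic replicate 3. The 8 genes summed to 9.67, 4.31 and 5.13 CPM in the cervical libraries and 8.12, 6.16 and 6.30 CPM in the thoracic ones, and Pax7 alone gave 49.5% to 73.1% of these reads. Pax7 marks muscle precursors and also progenitors of the dorsal spinal cord. It had 7.07, 2.82 and 3.72 CPM in the cervical libraries and 5.04, 4.08 and 3.12 CPM in the thoracic libraries (log2 fold change 0.14 with an SE of 0.32, edgeR adjusted p = 0.96). Without Pax7 the sum was 2.60, 1.496 and 1.41 CPM in the cervical libraries and 3.08, 2.09 and 3.18 CPM in the thoracic ones, and the log2 ratio moved from -0.11 to -0.60.

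The factors that commit cells to muscle were almost absent. Myod1 had 0 reads in all 3 cervical libraries, which allows up to 0.0888 to 0.0934 CPM at a floor of 3 reads per library, and 4, 1 and 5 reads in thoracic libraries. Myog and Myf5 had at most 8 reads in a library. No fold is given for Myod1 at such counts.

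Of the structural genes, Des, the intermediate filament desmin of muscle and of vessel walls, had 0.217, 0.293 and 0.282 CPM in the cervical libraries and 0.579, 0.644 and 0.37 CPM in the thoracic libraries. The regions did not overlap (log2 fold change -1.004 with an SE of 0.45, edgeR adjusted p = 0.574). Actc1, the actin of heart and embryonic skeletal muscle, did not overlap either, at 0.093, 0.147 and 0.125 CPM against 0.392, 0.215 and 0.926 CPM, on 70 reads that were too few for the filter. Tnnt1, slow troponin T, was lower in cervical in all 3 replicate numbers, at 0.307 ± 0.191 CPM against 0.531 ± 0.0629 CPM (SD, n = 3), with cervical replicate 1 inside the thoracic range. Myh3, the embryonic myosin heavy chain, had means of 0.897 ± 0.387 and 0.914 ± 0.31 CPM. Of the 33 tested members 3 had all thoracic values above all cervical ones (Flt1, Twist1 and Des), a share near the 7.5% of all genes tested.

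Of 14 further muscle genes 9 were tested, 4 with a log2 fold change above 0 and 5 below, with a median of -0.16. None of them was called with or without the block. The most abundant, Ttn, the giant sarcomere protein titin, had 9.96 ± 1.54 CPM in the cervical libraries and 13.4 ± 1.54 CPM in the thoracic libraries (log2 fold change -0.43 with an SE of 0.15, edgeR adjusted p = 0.378). Its exons add up to a very long transcript, and per length it had 0.0997 RPKM.

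Seen by library, the lists did not share an order. Of the 9 erythroid genes 6 were highest in cervical replicate 1, the library in which 8 of 9 mesenchyme, 7 of 10 endothelial and 4 of 10 macrophage genes were lowest. In cervical replicate 2, which had the lowest sum of motor neuron genes, 5 of 10 macrophage genes were highest, and 8 of 9 motor neuron genes were lowest. In cervical replicate 3, 6 of 9 mesenchyme genes were highest, and in thoracic replicate 1, 6 of 10 endothelial genes.

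Of the 9 motor neuron genes edgeR with the filter called none without the block in all 6 libraries, while DESeq2 called Isl1. Filtered edgeR called Isl1 and Slc18a3 without cervical replicate 1. Without the filter on low counts edgeR called 5 (Isl1, Lhx4, Prph, Slc18a3 and Slc5a7), where it called 1.91% of genes. With the block Isl1 (log2 fold change -0.63 with an SE of 0.08, edgeR adjusted p = 0.00105) and Slc18a3, the vesicular acetylcholine transporter (-0.59, SE 0.13, edgeR adjusted p = 0.0303), were called higher in thoracic libraries. The blocked call of Slc18a3 was lost when replicate 2 or 3 of either region was left out. Without replicate 1 of either region the blocked fit also called Chat, Lhx4 and Slc5a7 higher in thoracic libraries. In those fits 798 genes in all were called without cervical replicate 1 and 789 without thoracic replicate 1. Without replicate 3 of either region the blocked fit called Prph higher in cervical libraries. Mnx1, the most abundant of the list, had 186 ± 47.3 CPM in the cervical libraries and 166 ± 30.2 CPM in the thoracic libraries. The part of the motor neuron content of a library in the levels of the 46 markers was not tested.

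**Figure D5:**
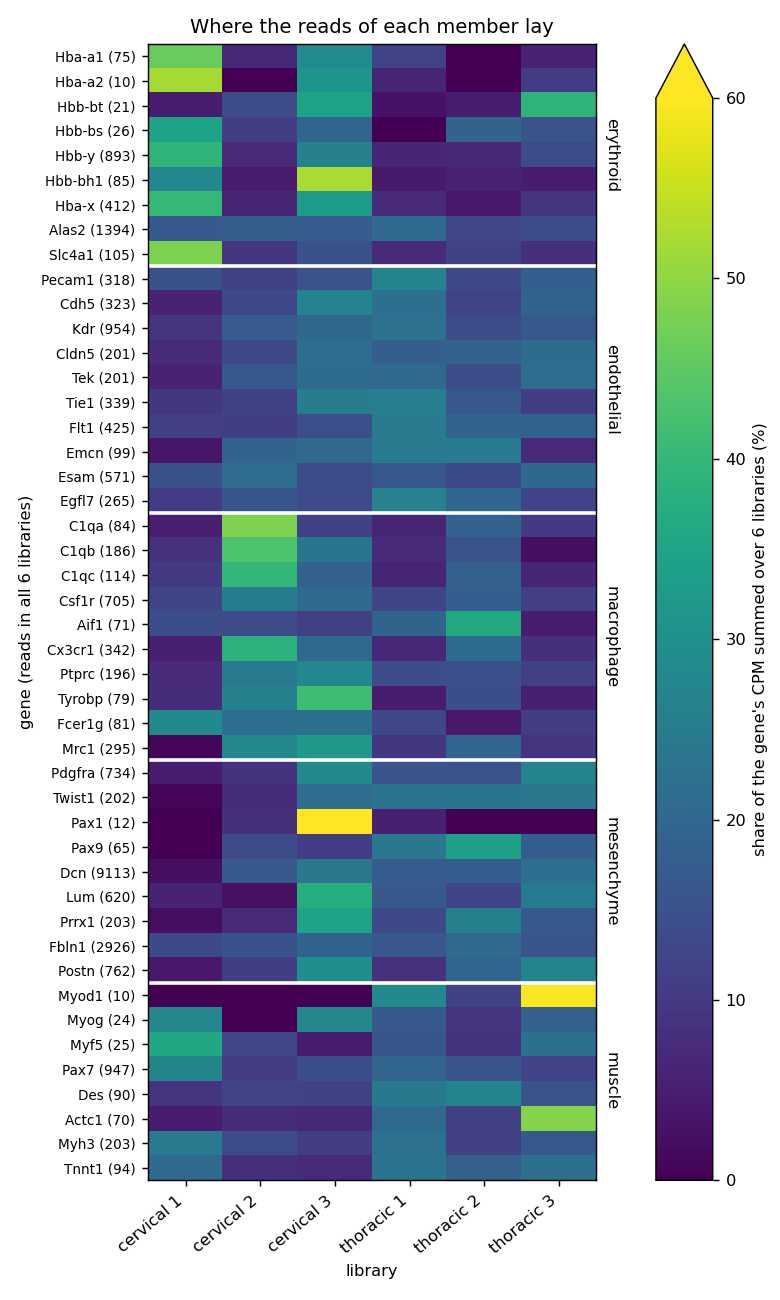
Share of each member's CPM, summed over the 6 libraries, that lay in each library (colour, 0 to 60%, higher values in the last colour), with members in rows by list, their reads over all libraries in parentheses, and libraries in columns. Most globins are bright in cervical replicates 1 and 3, C1q and Cx3cr1 in cervical replicate 2, mesenchyme genes are dark in cervical replicate 1, and Alas2, Esam and Fbln1 are even.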

How the data were processed

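Ribosomal RNA-depleted total RNA of 6 libraries, 3 cervical and 3 thoracic, was grouped by the sample titles. The authors deposited a table of raw counts, whole numbers of reads for each gene, with gene symbols, and the notes name mm39 as the build. FastQC 0.11.9, STAR 2.7.5b and featureCounts 2.0.1 are listed in the submitters' processing notes. Neither the gene annotation's release nor whether counting used strand is given in the sources used here, so a gene and an antisense partner on the same bases cannot be told apart.

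All 56805 genes entered 1 fit with edgeR 4.0.16 in R 4.3.3: TMM scaling, the default low-count filter with a minimum count of 10 (34833 genes with 0.117% of counts removed), the quasi-likelihood test on region alone, and Benjamini-Hochberg adjustment over the 21972 genes left. Fold changes are cervical over thoracic with a prior count of 0.125, and the SE is that value over the root of F. The common biological coefficient of variation came to 15.4%. Over all tested genes the median log2 fold change was 0.0069 to 0.0102 under TMM, median-of-ratios and total scaling. Summed CPM and RPKM (by deposited exon length) are descriptions with no test. The fit was tested on simulated data.

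Replicate numbers come from the titles. Same-numbered libraries deviated together from their region means (r of 0.163, 0.160 and 0.195), all above 0.1 and above every other pairing, so the numbers were taken to pair the libraries, and a blocked fit is given where it changes a call. Other alternatives were DESeq2 1.42.0, limma-voom (limma 3.58.1), other scalings and filters, and each library left out. Blocked fits with a library left out were added after seeing the data.

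All 46 members are named. Of 9 further lists (erythroid, endothelial, macrophage, mesenchyme, muscle, pericyte, cartilage, epithelium and motor neuron), each gene called with or without the block and the most abundant gene are named, and the fibrillar collagen Col1a2 was added after its values were seen. Genes called only without the filter or with a library left out are named too. Members and lists were chosen with earlier results of these data known. Promoter sequences are on GRCm38.p6 and were not combined with mm39 coordinates.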

Additional observations from a re-analysis of the deposited data

How the results depend on the processing

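Of 21972 genes tested, 119 were called. DESeq2 called 408, the fit without the low-count filter 747 and the replicate block 432. Leaving out 1 library gave 9 to 159 calls (9 without cervical replicate 3, 37 without thoracic replicate 2, 41 without cervical replicate 2 and 45 without thoracic replicate 3), and 229 to 798 with the block (798, 253 and 320 without cervical replicates 1, 2 and 3, and 789, 229 and 323 without the thoracic ones). For the erythroid members, 0 were called, but 3 without the filter, 1 with DESeq2, 1 with the replicate block, 0 to 1 with a library left out (Hba-x without cervical replicate 2) and 0 to 2 with the block as well (Hba-x and Hbb-y without replicate 2 of either region, and Hba-x alone without thoracic replicate 1 or 3). For macrophage members it was 1 without the filter (C1qb) and 0 to 1 with the block and a library left out, and for mesenchyme members 1 without the filter (Dcn) and 0 to 1 with the block and a library left out (Lum). No endothelial or muscle member was called in any of these fits. With all 6 libraries the block changed the call of no member but Hba-x. A blocked fit without 1 library compares 2 complete pairs, so it rests on fewer libraries.

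The log2 ratio of the sums rose from 0.91 to 1.62 for erythroid genes without Alas2 and went from -0.11 to -0.60 for muscle genes without Pax7. With a library left out it ran from 0.63 to 1.20 for erythroid, from 0.37 to 1.13 for macrophage, from -0.50 to -0.09 for endothelial, from -0.94 to 0.05 for mesenchyme and from -0.54 to 0.11 for muscle genes. It was above 0 for mesenchyme genes without cervical replicate 1, and for muscle genes without cervical replicate 2, cervical replicate 3 or thoracic replicate 1. The cause of these shifts was not tested. Members with under 100 reads in all are limited by counting error.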
